A study of Mus musculus with 45 samples.

Results

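The glutathione peroxidase genes Gpx1, Gpx3, Gpx4, Gpx6, Gpx7 and Gpx8 were examined in 3 brain regions of mice carrying a Shank3 mutation. These 6 genes of the 18135 in the deposited table were listed by symbol, and Gpx6 was chosen by its measured striatal level, which falls with the dose of the mutant allele. The striatal genotype differences of Gpx6 are therefore given as a description, with no test. Gpx2 and Gpx5 were not analysed here.

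Poly(A)-selected RNA of prefrontal cortex (termed cortex), hippocampus and striatum was sequenced as stranded libraries. All mice were C57BL/6J males of 13 weeks. WT mice, mice heterozygous for the deletion of Shank3 exons 14 to 16 (Shank3-HT) and mice homozygous for it (Shank3-HM) each gave 5 samples per region, 45 in all. The labels call the homozygous mice knock-out. The tissue is bulk, so that fewer cells of a type and less RNA per cell cannot be told apart.

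Many glutathione peroxidases, though not all members of the family, use glutathione as the electron donor to reduce hydrogen peroxide and organic hydroperoxides. The active site holds selenocysteine in some members and cysteine in others. Selenocysteine is encoded by a TGA codon, which would otherwise end the protein. Gpx1 acts in the cytosol and mitochondria, Gpx3 is secreted into plasma, and Gpx4 reduces lipid hydroperoxides within membranes and protects cells from ferroptosis. Gpx6 was first known from the olfactory epithelium, and Gpx7 and Gpx8 reside in the endoplasmic reticulum, where they contribute to oxidative protein folding.

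The coding sequence around the active-site codon is shown for each member because this codon separates the selenoenzymes from Gpx6, Gpx7 and Gpx8. Each line gives 27 bases of the coding strand, 5′ to 3′, from the GENCODE transcripts of build GRCm38, with the active-site codon in capitals.
Gpx1: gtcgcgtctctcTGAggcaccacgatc
Gpx3: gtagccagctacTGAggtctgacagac
Gpx4: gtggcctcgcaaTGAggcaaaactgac
Gpx6: gtggcatccttcTGTggcctgacagct
Gpx7: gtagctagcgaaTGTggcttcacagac
Gpx8: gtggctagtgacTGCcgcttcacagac

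The annotation marks the TGA of Gpx1, Gpx3 and Gpx4 as selenocysteine, whereas Gpx6 and Gpx7 carry TGT and Gpx8 carries TGC, both cysteine codons. The Gpx1 codon is codon 47, in exon 1 of 2, at chr9:108339451-108339453 on the plus strand. The Gpx3 codon is codon 73, in exon 2 of 5, at chr11:54907256-54907258 on the plus strand. That of Gpx4 is codon 73, in exon 3 of 7, at chr10:80054737-80054739 on the plus strand. In Gpx6, codon 73 lies in exon 2 of 5 at chr13:21313777-21313779 on the plus strand. In Gpx7 it is codon 56, in exon 2 of 3, at chr4:108403430-108403432 on the minus strand, and in Gpx8 codon 79, in exon 2 of 3, at chr13:113045661-113045663 on the minus strand. Over the 27 bases, Gpx7 and Gpx8 were the most alike pair with 22 identical bases, and Gpx6 shared most bases with Gpx3, namely 18.

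The whole Gpx6 gene spans chr13:21312125-21319624 and its principal transcript of 1340 bases encodes 221 codons. Gpx8 at chr13:113042753-113046410 overlaps Cdc20b on the opposite strand, and the other 5 members overlap no annotated gene.

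The deposited values are normalized counts with decimals, of which the sums per sample were 26118607 to 29568983, and the sequencing depth is not known. Shank3 itself was lower in both mutants in every region with no overlap of the groups, as in the striatum, where it was 11309 to 12740 for WT, 7959 to 9323 for Shank3-HT and 4569 to 6242 for Shank3-HM samples. Against the labelled tissue, the summed level of 22 striatal spiny projection neuron markers was 381780 to 507430 in the 15 striatal samples, 28118 to 30514 in the hippocampus and 28569 to 32806 in 14 cortical samples. Cortical Shank3-HM replicate 2 stood apart at 122140. In the striatum, Shank3-HT replicate 5 had a summed level of 9 choroid plexus markers of 69518, against 467 to 1590 in the other 14 samples. Member values that stood apart in these samples are given with and without them.

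Gpx6 was a striatal transcript in these samples. It was listed at 0 in 9 of 15 cortical and 12 of 15 hippocampal samples, and its highest value outside the striatum was 7.48, in cortical Shank3-HM replicate 2. The next highest was 5.19 in a cortical WT sample. Every one of the 15 striatal samples was above these, from 102.6 upward, so that the lowest striatal value was 13.7 times the highest value elsewhere.

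In the WT striatum, Gpx6 was at 459.6, 392, 347, 288 and 258 normalized counts. Shank3-HT mice had 343, 203, 184, 284 and 167. Shank3-HM mice had 162, 116, 102.6, 140.5 and 178. All 5 Shank3-HM samples lay below the lowest WT sample, whereas only 3 of 5 Shank3-HT samples did, and 4 of 5 Shank3-HM samples lay below the lowest Shank3-HT sample. The WT and Shank3-HT groups overlapped, as did the Shank3-HT and Shank3-HM groups. Among the genes tested in the striatum, 0.752% had Shank3-HM samples all below WT.

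The group means were 349 ± 80.8 (SD, n = 5) for WT, 236 ± 74.5 (n = 5) for Shank3-HT and 139.9 ± 31.2 (n = 5) for Shank3-HM samples, or 67.7% and 40.1% of the WT mean. On the log2(value + 1) scale, Shank3-HT differed from WT by -0.58, Shank3-HM from WT by -1.31 and Shank3-HM from Shank3-HT by -0.73. Each difference kept its sign without any single sample: that of Shank3-HM from WT ranged from -1.41 to -1.20 and that of Shank3-HT from WT from -0.73 to -0.47, which was its value without Shank3-HT replicate 5. These differences chose the gene and carry no test.

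**Figure D1:**
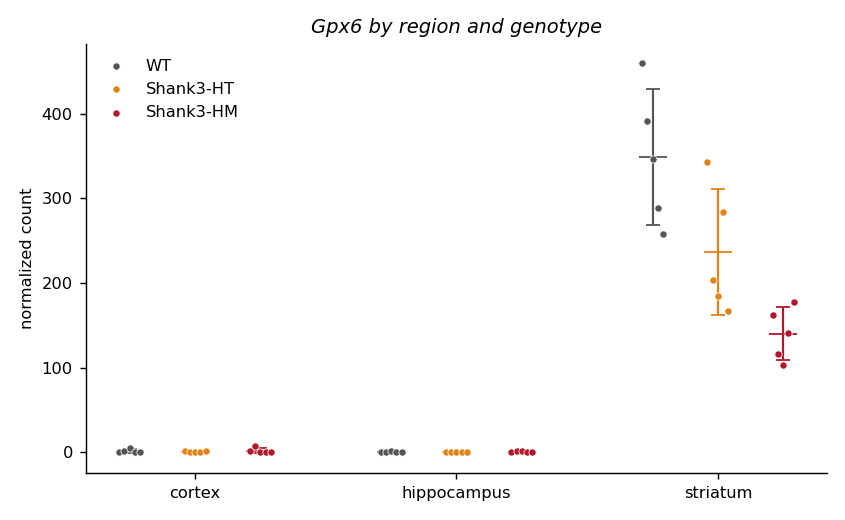
Normalized count of Gpx6 (vertical axis) in each sample by region and genotype, with 5 points per group and the mean ± SD as horizontal and vertical bars. The striatal samples run from 102.6 to 459.6, with group means that descend from WT over Shank3-HT to Shank3-HM, while cortical and hippocampal samples stay between 0 and 7.48.

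Spiny projection neurons are the main neurons of the striatum, and their markers were compared with Gpx6 sample by sample. The mean log2 level of the 22 markers was 13.55 ± 0.14 (SD, n = 5) for WT, 13.49 ± 0.15 (n = 5) for Shank3-HT and 13.56 ± 0.06 (n = 5) for Shank3-HM samples. None of the 22 markers passed the limma test in either mutant, and their median log2 difference was -0.06 for Shank3-HT and -0.02 for Shank3-HM samples. Gpx6 relative to this level was -5.13 ± 0.24 for WT, -5.65 ± 0.30 for Shank3-HT and -6.45 ± 0.34 for Shank3-HM samples (SD, n = 5 each). Relative to the markers, Shank3-HM thus lay -1.32 from WT, with all Shank3-HM values (-6.90 to -6.05) below all WT values (-5.40 to -4.78).

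**Figure D2:**
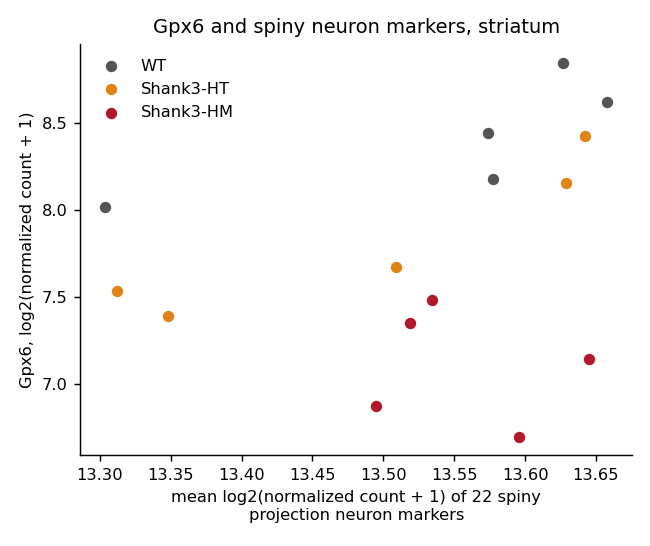
Gpx6, as log2(normalized count + 1), against the mean log2 level of 22 spiny projection neuron markers in the 15 striatal samples, coloured by genotype. At like marker levels the 5 Shank3-HM points lie below the WT points, and within WT and Shank3-HT the samples with the lowest marker level (13.30 to 13.35) also hold the lowest or next to lowest Gpx6.

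Markers of other cell types were compared in the same samples. The 9 oligodendrocyte markers had a median log2 difference from WT of 0.35 in Shank3-HT and 0.21 in Shank3-HM striatum, none past the threshold, with summed levels of 185650 to 246160 for WT, 201940 to 343160 for Shank3-HT and 205800 to 312330 for Shank3-HM samples. The 11 cortical excitatory neuron markers had a median difference of -0.90 in Shank3-HT and -0.07 in Shank3-HM striatum, none past the threshold, and their summed levels overlapped between all 3 genotypes (24848 to 34292 for WT, 22646 to 32296 for Shank3-HT and 21331 to 37047 for Shank3-HM samples). The 9 choroid plexus markers had a median difference of 1.62 in Shank3-HT (0.37 to 4.19, all 9 above 0) and 0.42 in Shank3-HM striatum, none past the threshold. Their summed level without Shank3-HT replicate 5 is given above, and the median sums were 587, 667 and 613 for WT, Shank3-HT and Shank3-HM samples. Of markers that divide the striatum itself, the 6 ventral and medial ones had a median difference of -0.14 in Shank3-HT and -0.19 in Shank3-HM samples, with sums of 8175 to 10264 for WT, 6808 to 11402 for Shank3-HT and 7745 to 10189 for Shank3-HM samples. The 3 lateral and dorsal ones had 0.07 and 0.19, with sums of 14063 to 20838, 17689 to 24186 and 18731 to 21114. None of the 9 passed, and the sums of the genotypes overlapped. In the other 5 lists (claustrum, astrocyte, microglia, endothelial and fibroblast markers) none passed either, with medians from -0.24 to 0.10 in Shank3-HT and -0.11 to -0.0049 in Shank3-HM samples. None of these markers was at 0 in all samples of a group, and their part in the Gpx6 levels was not tested.

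Genes with the most similar pattern to Gpx6 were listed by Pearson's r on the log2 scale. Over all 45 samples and 12474 genes with a mean of at least 100, they were Rcn1 (r = 0.984), Pde1b (0.983), Ppp1r1b (0.983), Mme (0.982) and Tbc1d8 (0.982). Pde1b and Ppp1r1b encode a phosphodiesterase and a phosphatase inhibitor of spiny neurons. Gpx6 lies at or near 0 outside the striatum, so that the contrast of striatum with the other regions sets most of this measure. In the WT, Shank3-HT and Shank3-HM striatum, mean Ppp1r1b was 49180, 47970 and 50900 normalized counts, and Rcn1, a calcium-binding protein of the endoplasmic reticulum, was at 2166, 2053 and 1767.

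Within the striatum, after subtracting each genotype mean, the 5 closest of 12102 genes were Ppp3r1 (r = 0.960), Nrep (0.946), Zfp146 (0.944), Gnb1 (0.943) and Apex1 (0.939) over 15 samples. Ppp3r1 is the regulatory subunit of calcineurin and Gnb1 a G protein subunit. By the same measure the 22 spiny neuron markers had a median r of 0.61, against 0.07 over all genes. The 3 lateral and dorsal striatum markers had 0.505, and the ventral and medial ones 0.11. Medians were -0.49 for oligodendrocyte, -0.58 for choroid plexus and -0.65 for fibroblast markers (9, 3 and 5 genes). Astrocyte and endothelial markers had -0.43 each and microglia markers -0.16. Cortical excitatory and claustrum markers had 0.105 and 0.09. Only list genes among the 12102 were counted. Gpx1 had an r of 0.34 with Gpx6 and Gpx4 one of 0.06. The 15 samples share their normalization, and these correlations are descriptions.

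Between regions of WT mice, the members differed in which region was highest. These tests come from a limma fit of all 45 samples with Benjamini-Hochberg adjustment over 16708 genes, in which 59.3% of genes passed the threshold of 0.05 between striatum and cortex, 56.1% between striatum and hippocampus and 46.6% between cortex and hippocampus. Of the 5 members other than Gpx6, 2 passed in each comparison.

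Gpx1 had an order of striatum, cortex and hippocampus. WT striatal samples were at 1836, 1677, 2016, 1850.3 and 1774 normalized counts. WT cortical samples were at 1085, 1095, 1197, 1109 and 1125. WT hippocampal samples were at 1040.5, 845, 828, 980.4 and 869. All striatal samples lay above all others, and all cortical above all hippocampal ones. Striatum exceeded cortex by 0.70 (log2, SE 0.065, limma adjusted p = 1.27e-12) and hippocampus by 1.01 (SE 0.065, adjusted p = 2.08e-17), and cortex exceeded hippocampus by 0.30 (SE 0.065, adjusted p = 0.000138).

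Gpx4 was lower in the striatum than in the cortex, at a smaller scale. Its WT mean was 3582 ± 215 (SD, n = 5) in the striatum, 4166 ± 283 (n = 5) in the cortex and 4009.5 ± 622 (n = 5) in the hippocampus. The striatum was lower than the cortex by a log2 difference of -0.22 (SE 0.074, limma adjusted p = 0.0106), and cortex and hippocampus did not differ beyond their spread (0.07, adjusted p = 0.485). From the hippocampus the striatum differed by -0.15 and did not pass (limma adjusted p = 0.0789). Without WT hippocampal replicate 2, the lowest there at 3224, the difference was -0.23 (adjusted p = 0.00647). With quantile normalization of all samples it was -0.21 (adjusted p = 0.0213). At the other end, a fit without a single sample gave -0.071. Over all 16 alternatives the limma adjusted p value ran up to 0.407.

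Gpx8 was highest in the hippocampus. WT hippocampal samples were at 114, 93.0, 140.2, 246 and 173, WT striatal ones at 56.6, 84.3, 79.1, 69.5 and 86.8, and WT cortical ones at 70.4, 49.8, 52.7, 52.5 and 76.9. Every hippocampal sample lay above every sample of the other regions, whereas striatum and cortex overlapped. Striatum differed from hippocampus by -0.95 (log2, SE 0.23, limma adjusted p = 0.000425) and cortex from hippocampus by -1.27 (SE 0.23, adjusted p = 9.61e-06), while striatum and cortex did not pass (0.32, adjusted p = 0.232). The WT hippocampal samples also had higher choroid plexus and fibroblast marker sums. Their choroid plexus sums were 3230 to 125060, against 467 to 1544 in WT striatum and 89.2 to 171 in WT cortex. Their fibroblast sums were 5592 to 13299, against 2745 to 3142 in WT striatum and 3720 to 4795 in WT cortex. WT hippocampal replicate 4 was the highest in Gpx8 and in both sums, and without it the differences were -0.76 and -1.08. Both calls held in the 15 alternatives that tested Gpx8, with limma adjusted p values of at most 0.00429. The part of these cells in the Gpx8 difference was not tested.

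Gpx3 and Gpx7 passed in no region comparison. Gpx3 in the WT striatum was at 38.0, 46.8, 58.8, 74.0 and 149.5, and its cortical and hippocampal WT means were 98.3 ± 9.93 and 102.4 ± 24.7 (SD, n = 5 each). Replicate 5 stood above the other 4 and was the only one to overlap the cortical WT samples or exceed them. With it, the striatum differed from cortex by -0.58 (log2, limma adjusted p = 0.0813) and from hippocampus by -0.61 (adjusted p = 0.0688). Without it, the differences were -0.88 (adjusted p = 0.00622) and -0.91 (adjusted p = 0.00508), and without WT hippocampal replicate 3 the latter was -0.72 (adjusted p = 0.0447). At the other end, fits without a single sample gave -0.39 from cortex and -0.42 from hippocampus. Over all alternatives the limma adjusted p values ran up to 0.268 and 0.234. Gpx7, at 53.6 to 61.7 on average in the WT regions, had differences from -0.19 to 0.10 with limma adjusted p values of 0.406 to 0.711.

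For Gpx6 in WT mice, the striatal mean lay 7.70 above cortex and 8.22 above hippocampus on the log2(value + 1) scale, given with no test. Because the values outside the striatum are near 0, the size depends on the added constant and was 9.92 and 11.04 with 0.1 in place of 1. The WT striatal samples are among those by which the gene was chosen, and it reached the mean of 10 over all samples only through the striatum.

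Levels of different genes were compared per kilobase (kb) of the principal transcript. In the WT striatum, Gpx4 made up 63.7% ± 1.3, Gpx1 29.1% ± 1.18, Gpx6 4.46% ± 1.08, Gpx8 1.24% ± 0.24, Gpx3 0.78% ± 0.46 and Gpx7 0.71% ± 0.09 of the summed normalized count per kb of the 6 genes (SD, n = 5). In the WT cortex and hippocampus, Gpx4 held 78.1% ± 0.84 and 78.9% ± 1.97 and Gpx1 18.9% ± 0.80 and 16.2% ± 1.25. The Gpx6 share of the striatum was 2.78% ± 0.82 for Shank3-HT and 1.66% ± 0.35 for Shank3-HM samples. Even in WT striatum, Gpx6 at 260.4 per kb was far below Gpx4 at 3735 and Gpx1 at 1708, and the family sum was 5863 ± 303 per kb for WT, 6328 ± 437 for Shank3-HT and 6274 ± 434 for Shank3-HM samples. Neither mutant mean of the family sum lay below that of WT.

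**Figure D3:**
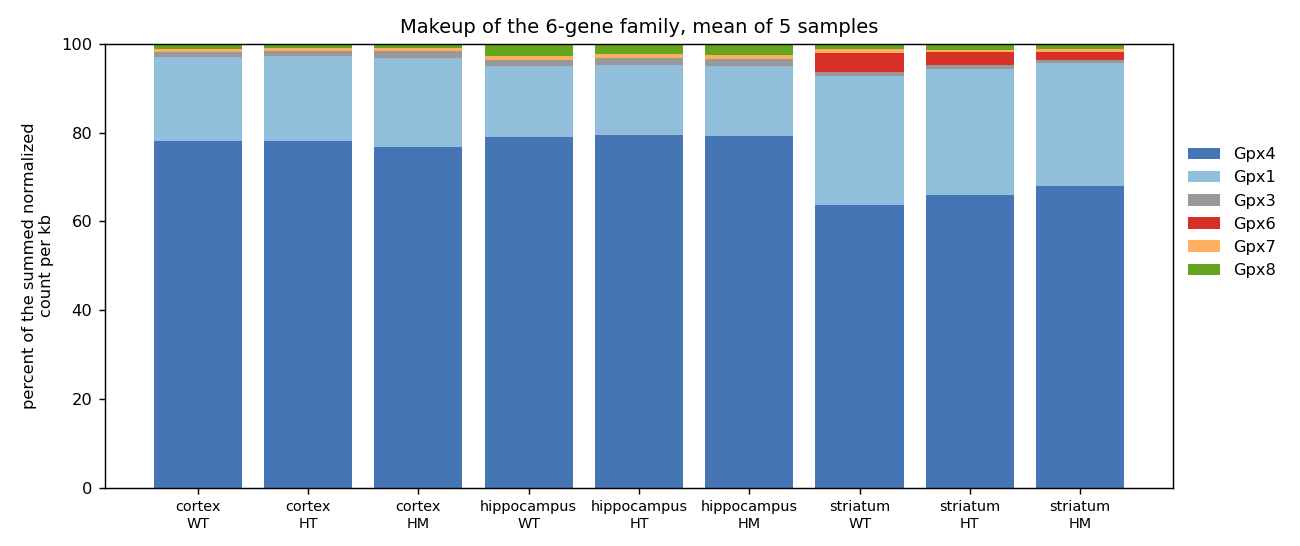
Percent of the summed normalized count per kb of transcript held by each of the 6 genes, as the mean of 5 samples for each region and genotype. Gpx4 and Gpx1 fill most of every bar, and the Gpx6 segment is visible only in the striatum, at 4.46% for WT, 2.78% for Shank3-HT and 1.66% for Shank3-HM samples.

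Genotype differences of the other 5 members were tested within each region with limma, the 3 genotypes fitted together and p values adjusted over all genes tested. None of these 5 members passed the threshold in any comparison of a mutant with WT. Calls were sparse among all genes too: the share of all genes past the threshold was 0% in the Shank3-HT and 0.0121% in the Shank3-HM cortex, 0.00603% in the hippocampus of each mutant, 0.00607% in the Shank3-HT and 0.182% in the Shank3-HM striatum. In the Shank3-HT cortex, where limma called 0 genes, 443 had an unadjusted p value under 0.05, none of them a member. Unadjusted p values under 0.05 were found for Gpx1 in the Shank3-HM cortex, where 5.49% of all genes had one, for Gpx3 in the Shank3-HM hippocampus (4.73% of all genes) and for Gpx4 in the striatum of both mutants (7.43% of all genes in each).

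Gpx4, which reduces lipid hydroperoxides, was the member besides Gpx6 whose striatal groups separated. WT samples were at 3713, 3209, 3642, 3606 and 3737 normalized counts. Shank3-HT samples were at 4350.4, 4211, 3927, 3594 and 3942. Shank3-HM samples were at 4573, 4137, 3932, 3891 and 3919.7. All Shank3-HM samples lay above all WT samples, as did those of 1.1% of all genes, while Shank3-HT and WT overlapped. The mean was 3582 ± 215 for WT, 4005 ± 292 for Shank3-HT and 4091 ± 287 for Shank3-HM samples (SD, n = 5 each). The log2 difference from WT was 0.19 in Shank3-HM (SE 0.061, limma adjusted p = 0.397) and 0.16 in Shank3-HT mice (SE 0.061, adjusted p = 0.641), and neither passed. The 95% confidence interval for Shank3-HM was 0.06 to 0.32. The summed oligodendrocyte markers had medians of 203520, 264030 and 228750 in the same 3 groups, and their part in the Gpx4 values was not tested.

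Gpx1 in the cortex was the other case of separation. WT samples were at 1085, 1095, 1197, 1109 and 1125, and Shank3-HM samples at 1221, 1286, 1219.6, 1249 and 1243. All Shank3-HM samples lay above all WT samples, which held for 0.388% of all genes in this comparison. Shank3-HT samples, at 1221, 1137, 1189, 1202 and 1072, overlapped both. The Shank3-HM difference was 0.15 (log2, SE 0.049, limma adjusted p = 0.878), and that of Shank3-HT 0.05 (adjusted p = 0.9997). The highest Shank3-HM value, 1286, is that of replicate 2, the sample with a spiny neuron marker sum of 122140, and Gpx1 is higher in the striatum than in the cortex. Without this sample the Shank3-HM difference was 0.14, and the remaining 4 Shank3-HM samples also lay above all WT samples. Striatal Gpx1 differed from WT by 0.07 for Shank3-HT and 0.03 for Shank3-HM samples (limma adjusted p = 0.878 and 0.965), with group means of 1831 to 1924.

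Gpx3, the secreted member, was dominated by single samples in 2 regions. Cortical Shank3-HM samples were at 86.4, 233.8, 87.8, 99.1 and 122.7, against 85.4 to 110.3 in WT. In WT mice, Gpx3 averaged 73.4 ± 44.6 in the striatum and 98.3 ± 9.93 in the cortex (SD, n = 5 each), with no call between them. Replicate 2, the high one of the cortical Shank3-HM samples, is the sample with the raised spiny neuron marker sum. The difference from WT was 0.25 (log2, SE 0.21, limma adjusted p = 0.898) with this sample and 0.0020 without it. Striatal Shank3-HT samples were at 55.5, 97.2, 52.3, 75.1 and 228.9, against 38.0 to 149.5 in WT. The high value belongs to replicate 5, the sample with the raised choroid plexus marker sum and a fibroblast marker sum of 5874 against 2305 to 3142 in the other striatal samples. The difference from WT was 0.41 (SE 0.38, limma adjusted p = 0.862) with it and 0.06 without it, and it was 0.70 without the high WT replicate 5 and 0.22 without the low WT replicate 1. The part of these cells in the Gpx3 values was not tested.

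In the hippocampus, Gpx3 was at 81.7, 130.6, 74.1, 122.8 and 102.9 in WT and at 121.9, 112.1, 145.2, 124.0 and 152.7 in Shank3-HM mice. The groups overlapped. The difference was 0.38 (log2, SE 0.16, limma adjusted p = 0.920, 95% confidence interval 0.05 to 0.71), and that of Shank3-HT 0.25 (adjusted p = 0.926), or 0.14 without WT replicate 3. Choroid plexus marker sums in these samples were 3230 to 125060 for WT, 1375 to 34447 for Shank3-HT and 6350.3 to 61773 for Shank3-HM samples, and their part was not tested.

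Of the endoplasmic reticulum members, Gpx7 in the striatum was at 51.8, 41.9, 66.1, 51.9 and 56.2 for WT, 48.0, 47.6, 37.8, 48.1 and 59.1 for Shank3-HT and 57.3, 60.5, 59.9, 58.9 and 87.7 for Shank3-HM samples. The Shank3-HM group overlapped both others. It differed from WT by 0.27 (log2, SE 0.17, limma adjusted p = 0.795) and from Shank3-HT by 0.42 (SE 0.17, adjusted p = 0.661), a comparison in which 0.14% of all genes passed. Replicate 5, at 87.7, stood above the other Shank3-HM samples, and without it the difference from WT was 0.15 (adjusted p = 0.902). The widest difference of Gpx7 between a mutant and WT was that of the Shank3-HT cortex, -0.40 (SE 0.22, limma adjusted p = 0.9997), where samples ran from 29.2 to 60.5 against 46.7 to 82.6 in WT. It was -0.25 without Shank3-HT replicate 2.

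Gpx8 in the Shank3-HT striatum was at 64.2, 63.3, 67.6, 56.7 and 166.2, the last again being replicate 5. WT samples ran from 56.6 to 86.8 and Shank3-HM samples from 61.6 to 77.7. The Shank3-HT difference from WT was 0.04 (log2, SE 0.23, limma adjusted p = 0.986) and turned to -0.24 without replicate 5. In the hippocampus, the differences were -0.28 for Shank3-HT and -0.12 for Shank3-HM samples (limma adjusted p = 0.926 and 0.956), with WT samples spread from 93.0 to 246. The Shank3-HT value depended on the lowest and the highest WT sample, being -0.44 when replicate 2 was left out and -0.093 when replicate 4 was.

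**Figure D4:**
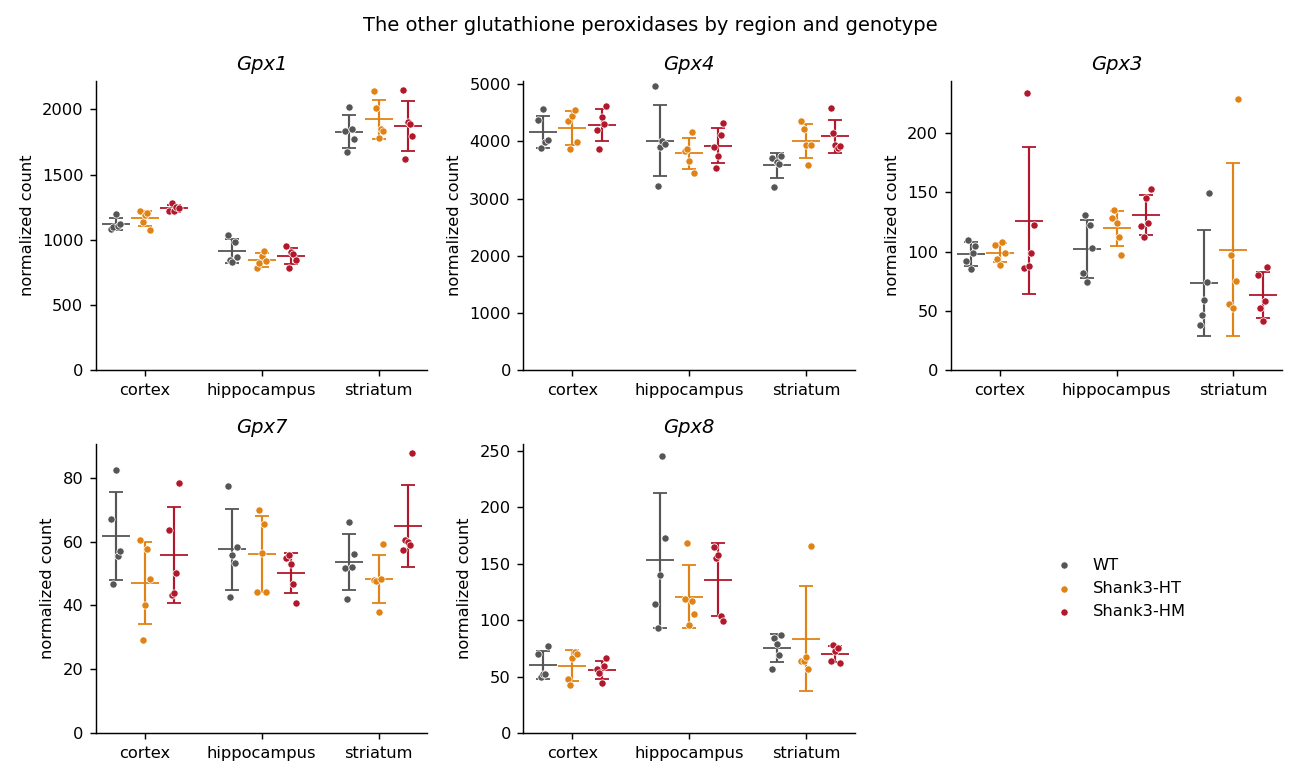
Normalized count (vertical axis, from 0) of Gpx1, Gpx4, Gpx3, Gpx7 and Gpx8 in each of the 45 samples by region and genotype, with the mean ± SD of 5 samples as bars. On average, Gpx1 is highest in the striatum and Gpx8 in the hippocampus in all genotypes, and single high points are seen for Gpx3 at 233.8 and 228.9 and for Gpx8 at 166.2.

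Whether the Shank3-HM effect differed between regions was tested as an interaction for the 5 members. Between striatum and cortex, where 0.0539% of all genes passed, the differences of the effect ran from -0.33 for Gpx3 to 0.42 for Gpx7, with limma adjusted p values of 0.961 or more. Between striatum and hippocampus, where 0.0718% passed, they ran from -0.46 for Gpx3 to 0.44 for Gpx7, and Gpx4 with 0.21 had the smallest limma adjusted p value, 0.930. None passed. The Gpx3 values rested on single samples: between striatum and cortex they were -0.035 without WT striatal replicate 5, -0.082 without cortical Shank3-HM replicate 2 and -0.52 without WT striatal replicate 1, and between striatum and hippocampus -0.16 without WT striatal replicate 5.

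**Figure D5:**
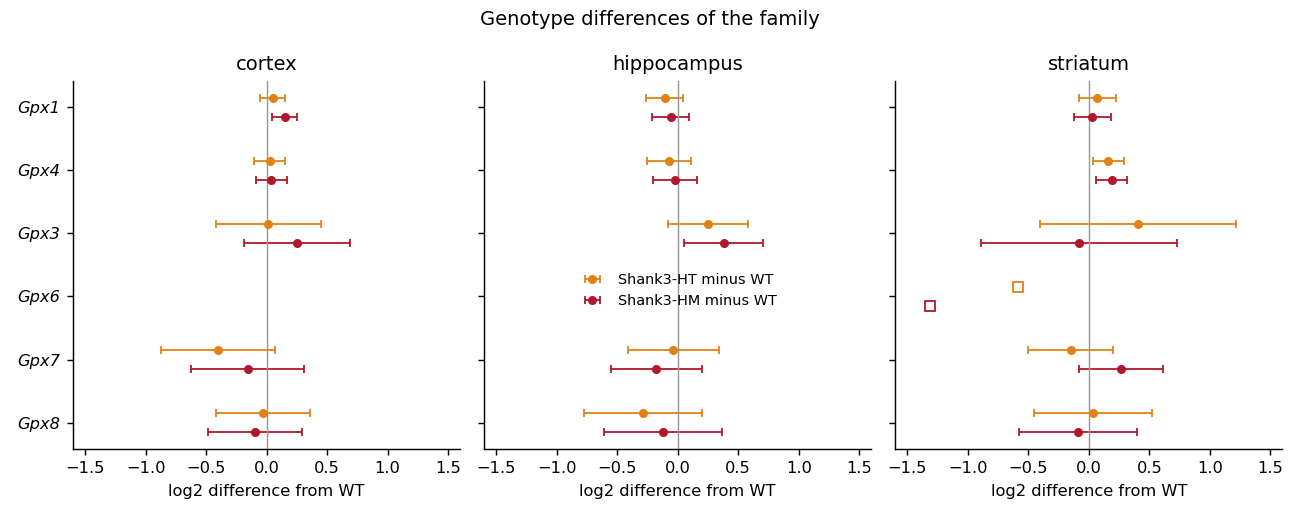
Log2 difference from WT (horizontal axis) of each member in Shank3-HT and Shank3-HM mice, with a panel per region, points for the limma estimate and bars for its 95% confidence interval. Open squares mark striatal Gpx6 at -0.58 and -1.31, shown without an interval because the gene was chosen for them, and it has no value in cortex and hippocampus, where its mean was under the minimum of 10.

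The genes around the family were described from 8 lists of glutathione, thioredoxin, antioxidant, selenoprotein, ferroptosis and oxidative folding genes. The lists hold 121 genes, of which 115 were tested in cortex and striatum and 116 in the hippocampus. A single one passed the limma test against WT, Srxn1 in the Shank3-HM striatum (1 of 115, where 0.182% of all genes passed), and in the other 5 comparisons of a mutant with WT none did. At an unadjusted p value under 0.05 there were 3 and 10 in the Shank3-HT and Shank3-HM cortex, 4 and 4 in the hippocampus and 13 and 12 in the striatum. As shares of the list genes tested these were 2.61% and 8.70%, 3.45% and 3.45%, and 11.3% and 10.4%, against 2.68% and 5.49%, 5.26% and 4.73%, and 7.43% and 7.43% of all genes. The median log2 difference of the lists in the striatum was 0.05 for Shank3-HT and 0.03 for Shank3-HM samples, against -0.0058 and 0.00072 over all genes.

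Srxn1 encodes sulfiredoxin, which restores over-oxidized peroxiredoxins. In the striatum it was at 2382, 1994, 1992, 2237 and 2089.8 for WT, 2325, 2169.9, 2094, 2403 and 2211 for Shank3-HT and 2559, 2518.5, 2601, 3075 and 2741 for Shank3-HM samples. All Shank3-HM samples lay above all WT samples, which held for 1.1% of all genes in this comparison. Srxn1 rose by 0.33 in Shank3-HM mice (log2, SE 0.064, limma adjusted p = 0.0414) and was 0.07 from WT in Shank3-HT mice (adjusted p = 0.861). The call was lost in 8 of 10 fits that left out a single sample, with adjusted p values from 0.0118 to 0.133 over all alternatives and differences of 0.29 to 0.37 over those 10 fits. Its Shank3-HM effect was larger in the striatum than in the hippocampus by 0.39 (SE 0.082, limma adjusted p = 0.0424), a call lost in 14 of 20 such fits. The same difference between striatum and cortex was 0.32 (SE 0.082, limma adjusted p = 0.177) and did not pass, there or in any of its 26 alternatives (adjusted p values from 0.0787 to 0.404).

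The 2 most abundant genes of each list stayed under the threshold in the striatum of both mutants. Selenop, the plasma selenium carrier, was at 5852 ± 206 for WT, 7029.5 ± 819 for Shank3-HT and 6609 ± 470.4 for Shank3-HM samples, with log2 differences of 0.26 and 0.17 (limma adjusted p = 0.566 and 0.580). Selenow, a small muscle and brain selenoprotein, differed by 0.16 and 0.14 (adjusted p = 0.715 and 0.746). Fth1, the ferritin heavy chain that stores iron, was at 44190 ± 2538, 51273 ± 5414 and 49681 ± 5142 in the same order and differed by 0.21 and 0.17 (limma adjusted p = 0.634 and 0.675). These SDs are over 5 samples each.

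Among the glutathione S-transferases, which attach glutathione to substrates, Gstm5 differed by 0.17 in Shank3-HT and 0.12 in Shank3-HM striatum (limma adjusted p = 0.566 and 0.539) and Gstm1 by 0.12 and 0.06. The superoxide dismutases Sod1 and Sod2 differed by -0.08 and -0.03 in Shank3-HM mice, the peroxiredoxin Prdx6 by 0.03 and the sestrin Sesn3 by 0.02. For glutathione supply, the transporter subunit Slc3a2 differed by -0.0016 and the glutamyltransferase Ggt7 by -0.07. The glutaredoxins Glrx2 and Glrx3 differed by 0.02 and 0.08. The lipid-binding Pebp1 differed by -0.05, and the endoplasmic reticulum chaperones Hspa5 and Pdia3 by -0.05 and 0.0030. These genes were picked by abundance, and over all 8 lists the Shank3-HM differences ran from -0.66 in the ferroptosis list to 0.44 among the glutathione S-transferases.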

How the data were processed

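The deposited signal values are normalized counts per gene in 45 samples. The authors quasi-mapped reads with Salmon (1.1.0 per the labels) with GC bias correction, imported the estimates with tximport and normalized them with DESeq2 (1.26.0 per the labels, with R 3.6.2), on GRCm38. At the best step, 12.8% to 32.0% of values lay within 0.05 of a whole multiple (10% by chance), so whole reads were not recovered and count tests were not used. Depth is unknown and no counting error is given. Columns coded KI were taken as Shank3-HM.

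Values were analysed as log2(value + 1), keeping genes whose mean over the fitted samples reached 10 (16507 in cortex, 16571 in hippocampus, 16482 in striatum, 16708 over all). The 3 genotypes of each region entered one limma 3.58.1 fit (R 4.3.3, lmFit and eBayes with trend), and regions and interactions over 9 groups, with Benjamini-Hochberg adjustment over all genes tested and a threshold of 0.05. The labels do not say which samples of different regions came from one mouse, so p values measure the spread between these samples. The striatal genotype fit was also run on simulated data with known changes and independent normal noise. That run covers neither stray samples nor the fit over 9 groups. Python 3.11.15, pandas 2.3.3 and matplotlib 3.10.9 were used.

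The members and lists were chosen with earlier results of these data known. Besides the 6 members, the text names list genes past the threshold in a genotype comparison, the 2 most abundant genes per list, and the 5 genes most like Gpx6 by each measure. Marker levels of 11 cell type lists were summed per sample. Alternatives were quantile normalization, a pseudocount of 0.1, no filter, a mean of at least 100, no intensity trend, only the 2 groups compared, the replicate number as a block, and each sample left out in turn.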

Additional observations from a re-analysis of the deposited data

Results flagged for a closer look

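In 5 of the 48 groups of 5 samples that were checked, 1 sample lay far from the other 4 (Dixon's gap to range ratio at the 95% level, which chance passes in about 1 of 20 groups). Gpx3 in the cortex of Shank3-HM replicate 2 was the highest of its group at 233.8, with a gap of 0.754 of the group's range. In striatal Shank3-HT replicate 5, Gpx3 was the highest at 228.9 (gap 0.746) and Gpx8 the highest at 166.2 (gap 0.901). Gpx4 in striatal WT replicate 2 was the lowest at 3209 (gap 0.752). Gpx7 in striatal Shank3-HM replicate 5 was the highest at 87.7 (gap 0.893).

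The Shank3-HM effect on Srxn1 differed between striatum and hippocampus by 0.39 on the log2 scale in the interaction test (limma adjusted p = 0.0424, over 10 striatal and 10 hippocampal samples), and over the alternatives its adjusted p value ranged from 0.0135 to 0.127. Between striatum and cortex the same difference was 0.32 (limma adjusted p = 0.177) and did not pass.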

How the results depend on the processing

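The genotype differences of striatal Gpx6 kept their sign and moved by less than the spread between samples under all alternatives run. With quantile normalization they were -0.60 (Shank3-HT minus WT), -1.30 (Shank3-HM minus WT) and -0.70 (Shank3-HM minus Shank3-HT), and relative to spiny neuron markers -0.52, -1.32 and -0.80. With a pseudocount of 0.1, Gpx6 of WT striatum lay 9.92 above cortex and 11.04 above hippocampus. With a pseudocount of 1, leaving out single samples gave 7.52 to 8.18 (without WT cortical replicate 3) above cortex. Of the 30 mutant-against-WT results of the other 5 members, none passed the threshold in 498 alternative values (lowest limma adjusted p = 0.212), 22 of which had the opposite sign. The labels do not say whether a replicate number marks a mouse. Deviations from group means correlated over 0.1 in 7 of 45 same-numbered pairs within a region (15.6%, against 11.1% of pairs with different numbers), and in 16 of 45 within a genotype between regions (35.6%, against 2.78%), so that same numbers within a genotype were more often alike, though not in every pair. With the replicate number as a block (within genotype for comparisons between regions), no call of a member changed, Gpx6 stayed at -1.31 (Shank3-HM minus WT) and -0.58 (Shank3-HT minus WT), genes called were 39 in the Shank3-HM striatum, 1 in the Shank3-HM cortex (2 without the block) and 20 in the striatum-cortex interaction (9 without it).

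Counts of called genes moved by over 1.5 times as follows, the cause not being tested. In the Shank3-HM cortex there was 1 with a mean of at least 100 and 1 with only the 2 groups. In the hippocampus there were 2 in each mutant with no filter. In the Shank3-HT striatum there were 0 with a pseudocount of 0.1, no filter or no trend, and without a trend 18 in the Shank3-HM striatum and 7 in the striatum-hippocampus interaction. With a mean of at least 100, Gpx8 was not tested, so that 1 member passed in each of striatum-hippocampus and cortex-hippocampus. Leaving out single samples gave 1 to 2 called genes in the Shank3-HM cortex, 0 to 2 in the Shank3-HT striatum, 12 (without Shank3-HM replicate 2) to 33 in the Shank3-HM striatum, 4 to 22 in the striatum-cortex and 2 to 12 in the striatum-hippocampus interaction.

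The Srxn1 call in the Shank3-HM striatum was lost without a trend (adjusted p = 0.115) and with only the 2 groups (0.0770), and that between striatum and hippocampus with quantile normalization (0.0521) and without a trend (0.0657). Some fit without a single sample moved 26 of 30 genotype, 7 of 15 WT region and 7 of 10 interaction differences of the 5 members other than Gpx6 by over 1.5 times or turned the sign. Signs turned only for differences that had not passed. Quantile normalization gave 0.041 for Gpx3 and -0.019 for Gpx4 between WT cortex and hippocampus. Leaving out single samples gave -0.034 to 0.057 (Gpx3), -0.0013 to 0.058 (Gpx4) and -0.10 to 0.087 (Gpx8) in the Shank3-HT cortex, -0.15 to 0.010 (Gpx4) and -0.14 to 0.076 (Gpx7) in the Shank3-HT hippocampus, -0.096 to 0.059 (Gpx4) and -0.28 to 0.068 (Gpx8) in the Shank3-HM hippocampus, -0.24 to 0.14 (Gpx8) in the Shank3-HT striatum, and -0.022 to 0.080 (Gpx1) and -0.27 to 0.22 (Gpx3) in the Shank3-HM striatum. It gave -0.14 to 0.065 (Gpx3), -0.0090 to 0.15 (Gpx4) and -0.0093 to 0.21 (Gpx7) between WT cortex and hippocampus, -0.19 to 0.024 (Gpx7) between WT striatum and hippocampus, and for Gpx8 -0.091 to 0.070 in the striatum-cortex and -0.16 to 0.19 in the striatum-hippocampus interaction.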
